A study of Mus musculus with 8 samples.

Results

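The genes described here are 10 genes of bacterial lipopolysaccharide sensing, of the inflammasome and of its cytokines, in mouse liver after 1 of 2 adeno-associated viral vectors. They were chosen by symbol, with no measured value in the rule, but with earlier results of these data known. All 10 were found among the 31910 rows of the deposited count table. Tlr2, Tlr4, Cd14 and Lbp act in sensing, Nlrp3, Casp1 and Gsdmd in the inflammasome, and Il1b, Il18 and Tnf encode cytokines. Of these, 9 had enough counts to be tested, and Tnf did not.

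The study, by its title, is about nonalcoholic steatohepatitis, a fatty liver with inflammation. Messenger RNA of frozen liver was sequenced in 4 libraries labelled AAV2/9-SA (SA 1 to SA 4) and in 4 labelled AAV2/9-Ctrl (Ctrl 1 to Ctrl 4), the control vector. The series design gives 4.8e10 vector genomes per mouse by tail vein after 7 weeks of feeding, and lists 3 feeds: a diet high in fat for 24 weeks, one high in fat and cholesterol for 16 weeks with sugar in the water, and chow. Which diet, strain, age or sex each library had, and which promoter drives the vector, the labels do not state. Nor do they state that the 4 libraries of a group came from separate animals. The p-values below therefore speak of the spread among libraries, which may be technical.

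As background, lipopolysaccharide of gut bacteria reaches the liver in portal blood. LBP, a plasma protein made by hepatocytes, hands it to CD14, which passes it to TLR4 and its partner MD-2, while TLR2 recognizes bacterial lipoproteins. Receptor signalling through MyD88 and NF-kappaB induces Tnf, Il1b and Nlrp3. The NLRP3 inflammasome then activates caspase-1, which cleaves pro-IL-1beta, pro-IL-18 and gasdermin D, the pore-forming protein of pyroptosis. Cleavage and secretion are not seen in messenger RNA.

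Total counts were 14114145 to 15922829 in 7 libraries and 28184001 in SA 4. CPM here is the count of a gene per 1000000 counts of the tested genes in its library, scaled by the TMM factor of edgeR. The hepatocyte gene Alb, which encodes albumin, was at 42728 to 66642 CPM in SA and 47989 to 76455 CPM in Ctrl. Mitochondrially encoded genes took 9.23% of the counts of Ctrl 4 and 3.55% to 4.87% in the other 7 libraries. A single count was worth 0.0362 CPM in SA 4, and between 0.0603 and 0.0718 in each other library.

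None of the 9 tested genes differed between SA and Ctrl past the threshold, an adjusted p under 0.05 in the quasi-likelihood test of edgeR. The background of that call was 0.0162% of 12358 tested genes. At an unadjusted p under 0.05, 1 of the 9 was called, Lbp, which was higher in SA, against 6.21% of all tested genes in either direction. DESeq2 and limma-voom also called none of the 9, and limma on the deposited FPKM values called none of the 6 listed there, Tlr4, Cd14, Lbp, Gsdmd, Il1b and Il18. DESeq2 called 0.478% of 12356 genes. The median log2 fold change of the 9 was -0.14, with 4 positive and 5 negative values, beside -0.01 over all tested genes. No gene of the 10 had its SA libraries all above or all below its Ctrl libraries, which 3.12% of all tested genes had.

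**Figure D1:**
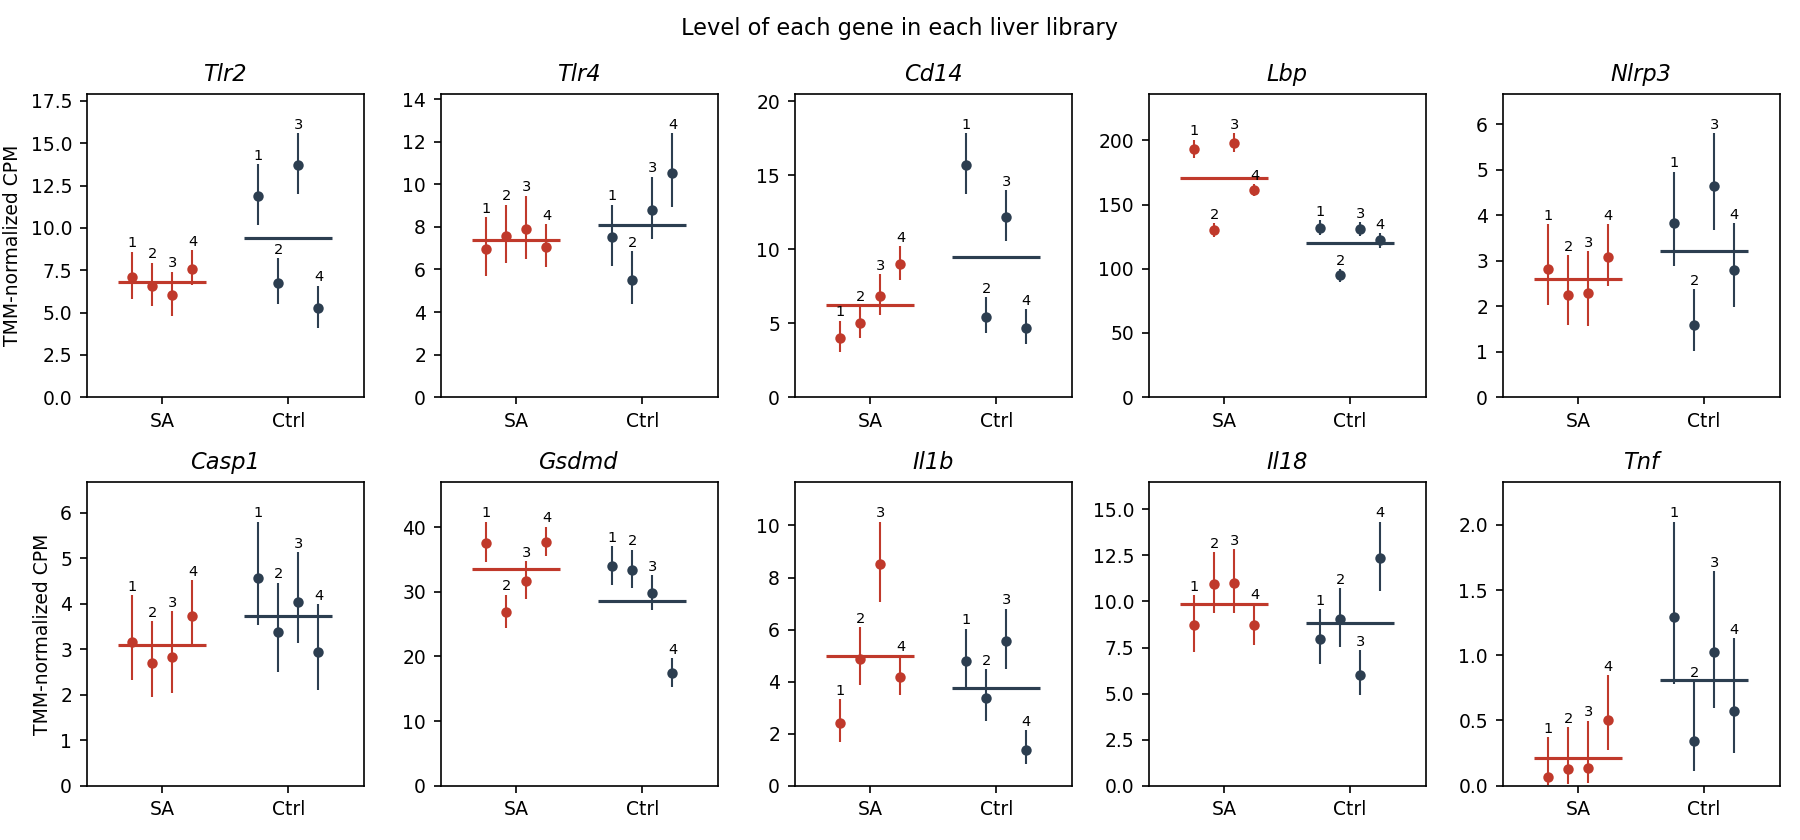
Level of the 10 genes in each library, in TMM-normalized CPM, SA left and Ctrl right in each panel. Points are libraries with their replicate number, bars are exact 95% Poisson intervals (counting error only), and horizontal lines are group means. The 4 SA libraries lie close together for Tlr2, at 6.02 to 7.59 CPM, while the Ctrl libraries spread between 5.24 and 13.7 CPM.

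Per length, Lbp was the most abundant of the 10 genes and Tnf the least. Dividing CPM by the exon length in GENCODE vM21, which may differ from the authors' annotation, gave Lbp 35.4 ± 6.57 CPM per kilobase in SA and 24.8 ± 3.57 in Ctrl (SD, n = 4 each). Gsdmd had 14.1 ± 2.20 CPM per kilobase in SA and 12.1 ± 3.26 in Ctrl, and Il18 9.55 ± 1.26 in SA and 8.58 ± 2.56 in Ctrl. The ranges of Gsdmd and Il18 overlapped in Ctrl but not in SA. Cd14, Tlr2, Casp1, Il1b and Tlr4 followed with group means between 1.33 and 5.48 CPM per kilobase, and in Ctrl each overlapped the next in that order. Nlrp3 had 0.642 ± 0.0999 CPM per kilobase in SA and 0.792 ± 0.326 in Ctrl, and Tnf 0.128 ± 0.122 in SA and 0.494 ± 0.262 in Ctrl. In SA, Nlrp3 lay below all the genes above it in this order, and Tnf below Nlrp3, with no overlap of ranges. In Ctrl the Nlrp3 range overlapped those of Tnf, Il1b and Tlr4.

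Lbp, the acute-phase protein that binds lipopolysaccharide in plasma, had the smallest p of the 9 tested genes. It stood at 194, 130, 198 and 161 CPM in SA 1 to 4 and at 132, 94.9, 131 and 122 CPM in Ctrl 1 to 4. Of the SA libraries, 3 lay above every Ctrl library, and SA 2 lay just under Ctrl 1 and Ctrl 3, so the groups overlapped. The means were 170.8 ± 31.8 CPM in SA and 120.0 ± 17.3 CPM in Ctrl (SD, n = 4 each). Lbp had a log2 fold change of 0.51 ± 0.17 (SE; 95% interval 0.15 to 0.87), with an unadjusted p of 0.00997 and an adjusted p of 0.562 in edgeR. By unadjusted p, Lbp ranked 219 of 12358. A two-sided exact permutation test of log2(CPM + 0.5) gave p = 0.0857, where 4 against 4 libraries cannot give less than 0.0286.

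The deposited FPKM table, which the authors computed per gene length, listed Lbp with the same order of groups. Lbp had 97.2, 69.0, 106 and 86.2 FPKM in SA 1 to 4 and 73.8, 43.5, 79.6 and 56.7 FPKM in Ctrl 1 to 4. There too the groups overlapped, through SA 2, which was below Ctrl 1 and Ctrl 3. Leaving out any 1 library kept the log2 fold change of Lbp between 0.42 and 0.62, and its smallest adjusted p (edgeR), 0.384, came without Ctrl 4.

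Cd14, the co-receptor that carries lipopolysaccharide to TLR4 and is made by macrophages and, in inflamed liver, by hepatocytes, varied 3.36 times within Ctrl and 2.25 times within SA. It stood at 4.02, 5.005, 6.85 and 9.04 CPM in SA 1 to 4 and at 15.7, 5.45, 12.2 and 4.67 CPM in Ctrl 1 to 4. Ctrl 1 and Ctrl 3 lay above every SA library, while Ctrl 2 and Ctrl 4 lay among them. Cd14 had a log2 fold change of -0.60 ± 0.38 (SE; 95% interval -1.42 to 0.22; edgeR, adjusted p = 0.955). Without Ctrl 1 it was -0.25 and without SA 4 it was -0.85. The deposited FPKM showed the same arrangement, with 2.80, 4.17, 5.49 and 7.19 FPKM in SA 1 to 4 and 13.0, 3.51, 11.3 and 3.34 FPKM in Ctrl 1 to 4.

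Tlr2, the receptor of bacterial lipoproteins, showed the same split of the Ctrl libraries. It stood at 7.11, 6.57, 6.02 and 7.59 CPM in SA 1 to 4 and at 11.9, 6.76, 13.7 and 5.24 CPM in Ctrl 1 to 4. The highest SA library was 1.26 times the lowest, against 2.61 times in Ctrl, and all 4 SA libraries lay inside the Ctrl range. For Tlr2 the log2 fold change was -0.46 ± 0.28 (SE; 95% interval -1.07 to 0.15; edgeR, adjusted p = 0.950). It ranged from -0.66 without Ctrl 4 to -0.22 without Ctrl 3.

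Tlr4, the lipopolysaccharide receptor itself, differed least among the sensing genes. It stood at 6.97, 7.57, 7.88 and 7.05 CPM in SA 1 to 4 and at 7.51, 5.52, 8.81 and 10.6 CPM in Ctrl 1 to 4. All SA libraries lay inside the Ctrl range. For Tlr4 the log2 fold change was -0.14 ± 0.22 (SE; 95% interval -0.60 to 0.33; edgeR, adjusted p = 0.996), and without Ctrl 4 it was 0.01. Unlike Cd14 and Tlr2, Tlr4 was highest in Ctrl 4 and lowest in Ctrl 2.

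Of the inflammasome genes, Nlrp3, the sensor protein, stood at 2.82, 2.25, 2.28 and 3.07 CPM in SA 1 to 4 and at 3.82, 1.59, 4.65 and 2.80 CPM in Ctrl 1 to 4. Again Ctrl 1 and Ctrl 3 were above every SA library and Ctrl 2 below them. The log2 fold change of Nlrp3 was -0.30 ± 0.33 (SE; 95% interval -1.01 to 0.41; edgeR, adjusted p = 0.996), -0.06 without Ctrl 3 and -0.52 without Ctrl 2. Casp1, the protease of the inflammasome, stood at 3.15, 2.69, 2.84 and 3.72 CPM in SA 1 to 4 and at 4.57, 3.38, 4.04 and 2.94 CPM in Ctrl 1 to 4. For Casp1, SA 2 and SA 3 were below every Ctrl library, and the other two SA libraries were inside the Ctrl range. Its log2 fold change was -0.26 ± 0.25 (SE; 95% interval -0.80 to 0.27; edgeR, adjusted p = 0.996), and -0.16 without Ctrl 1.

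Gsdmd, which encodes the pore-forming gasdermin D, was at 26.9 to 37.7 CPM in 7 of 8 libraries and lower in Ctrl 4. It stood at 37.6, 26.9, 31.7 and 37.7 CPM in SA 1 to 4 and at 34.0, 33.4, 29.8 and 17.4 CPM in Ctrl 1 to 4. Ctrl 4 was the lowest library, and its exact 95% Poisson interval, 15.3 to 19.7 CPM, lay below those of the other 7. The interval of SA 2, 24.4 to 29.6 CPM, lay below those of SA 1, SA 4, Ctrl 1 and Ctrl 2. The log2 fold change was 0.23 ± 0.21 (SE; 95% interval -0.22 to 0.67; edgeR, adjusted p = 0.996), 0.04 without Ctrl 4 and 0.02 with limma-voom sample weights.

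Il1b, a cytokine gene induced by Toll-like receptor signalling, spread widely in both groups. It stood at 2.41, 4.88, 8.51 and 4.19 CPM in SA 1 to 4 and at 4.78, 3.38, 5.55 and 1.36 CPM in Ctrl 1 to 4. SA 3 was the highest library and Ctrl 4 the lowest, a range of 3.52 times within SA and 4.07 times within Ctrl. The log2 fold change was 0.40 ± 0.42 (SE; 95% interval -0.52 to 1.31; edgeR, adjusted p = 0.996), and 0.03 without SA 3. In the deposited FPKM table the difference took the opposite sign, with a log2 fold change of -0.08 on the log2(FPKM + 1) scale (limma, adjusted p = 0.999). In GENCODE vM21, 25 bases of the Il1b exons, 1.31% of their length, are shared with the antisense gene Il1bos, and no exon of the other 9 genes is shared with another gene.

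Il18, which encodes a cytokine kept as an inactive precursor until caspase-1 cleaves it, stood at 8.72, 10.9, 10.996 and 8.71 CPM in SA 1 to 4 and at 7.98, 9.03, 6.03 and 12.3 CPM in Ctrl 1 to 4. All SA libraries lay inside the Ctrl range. The log2 fold change was 0.15 ± 0.23 (SE; 95% interval -0.33 to 0.64; edgeR, adjusted p = 0.996). It was 0.0080 without Ctrl 3, 0.35 without Ctrl 4 and 0.41 on the log2(FPKM + 1) scale. For Il18 the 2 deposited tables did not follow each other. The FPKM were 3.04, 10.6, 4.36 and 0.676 in SA 1 to 4 and 4.57, 6.66, 1.21 and 0.422 in Ctrl 1 to 4. Across the 8 libraries the log2 FPKM and log2 CPM of Il18 had a Pearson r of 0.05, given as a description, against 0.79 to 0.99 for Tlr4, Cd14, Lbp, Gsdmd and Il1b. Ctrl 4 and SA 4 were the lowest in FPKM, whereas Ctrl 4 was the highest in CPM.

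Tnf, which encodes tumour necrosis factor, was near the detection limit. It had 1, 2, 2 and 14 counts in SA 1 to 4 and 19, 5, 17 and 8 counts in Ctrl 1 to 4, which is 0.0671, 0.125, 0.138 and 0.506 CPM in SA and 1.296, 0.345, 1.03 and 0.574 CPM in Ctrl. Of the SA libraries, 3 were below every Ctrl library, and SA 4, the most deeply sequenced, was inside the Ctrl range. SA 1 to SA 3 were under 3 counts each, the count taken here as the floor, and their exact 95% Poisson intervals reached up to 0.374, 0.452 and 0.4996 CPM. Those limits overlap the interval of Ctrl 2, 0.112 to 0.804 CPM. The filter on low counts left Tnf out. In the fit without a filter edgeR gave -1.77 ± 0.67 (log2 fold change and SE, adjusted p = 0.614), and the fold change ranged from -2.79 without SA 4 to -1.47 without Ctrl 1. The two-sided exact permutation test gave p = 0.0571. Tnf has no entry in the FPKM table, nor have Tlr2, Nlrp3 and Casp1.

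**Figure D2:**
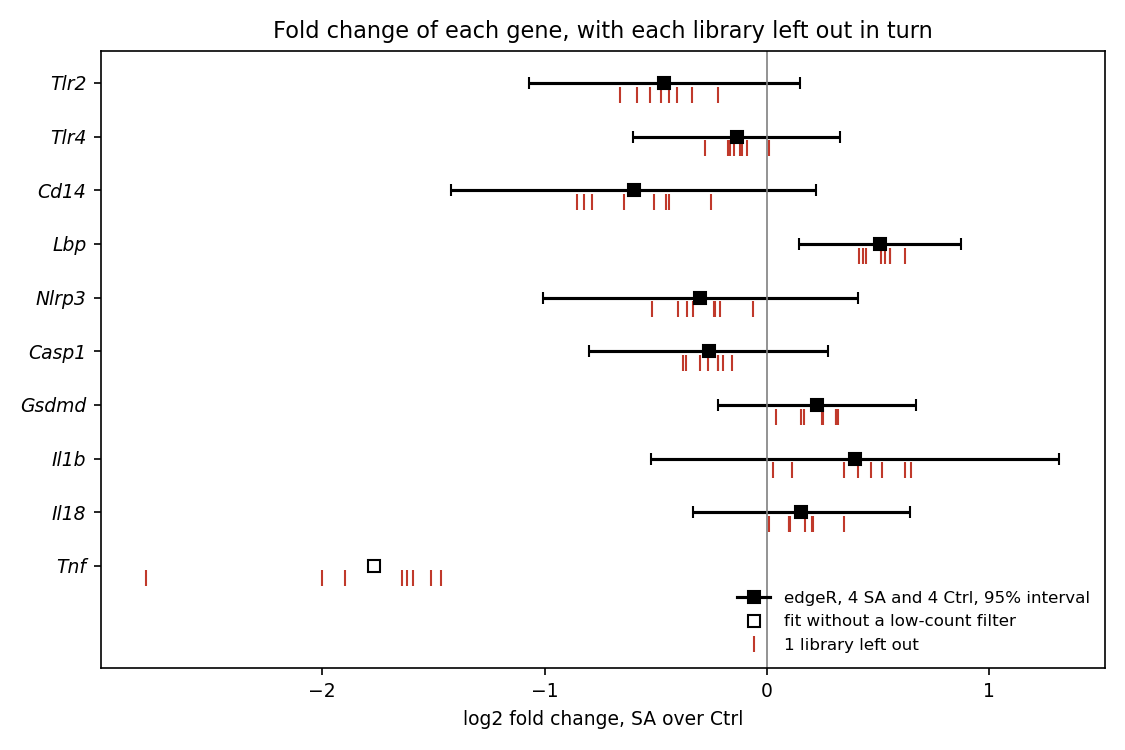
Log2 fold change of each gene, SA over Ctrl. Filled squares with bars are the edgeR value and its 95% interval from 4 SA and 4 Ctrl libraries, the open square is Tnf in the fit without a low-count filter, and the red ticks are the values with 1 library left out. The interval of Lbp, 0.15 to 0.87, does not include 0 before adjustment for the number of genes, and those of the other 8 tested genes do.

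Cd14, Tlr2, Casp1 and Tnf moved together from library to library. Over the 8 libraries the Pearson r between their log2 levels was 0.84 for Tlr2 with Cd14, 0.86 for Tlr2 with Casp1, 0.87 for Cd14 with Casp1, 0.83 for Cd14 with Tnf, 0.85 for Casp1 with Tnf and 0.73 for Tlr2 with Tnf. These values describe the same 8 libraries, were picked from 45 pairs for their height, and carry no test. Nlrp3 varied with the same genes, at 0.77 with Tlr2, 0.70 with Tnf, 0.69 with Cd14 and 0.66 with Casp1. With each group centred on its own mean the first 6 were 0.82, 0.83, 0.85, 0.91, 0.82 and 0.71, so they are not only a difference between the groups. Within SA, SA 4 was the highest library for Cd14, Tlr2, Casp1, Nlrp3 and Tnf alike. The Tnf values of SA 1 to 3 come from 1, 2 and 2 counts. In CPM, Il18 ran against this set, with r of -0.92 with Tlr2, -0.80 with Casp1, -0.67 with Cd14 and -0.56 with Tnf. The FPKM of Il18 did not follow its CPM (r of 0.05), so this opposition is known from the counts only.

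The deviations place these genes high in Ctrl 1 and Ctrl 3. Cd14 was 1.09 above its mean over the 8 libraries in Ctrl 1 and 0.74 in Ctrl 3 on the log2 scale, and Tlr2 was 0.59 and 0.79 above. In the same 2 libraries Tnf was 0.95 and 0.71 above its mean and Nlrp3 0.39 and 0.64. Ctrl 2 and Ctrl 4 were below the mean for Cd14 and Tlr2, so the negative fold changes of these genes rest on 2 of the 4 Ctrl libraries.

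**Figure D3:**
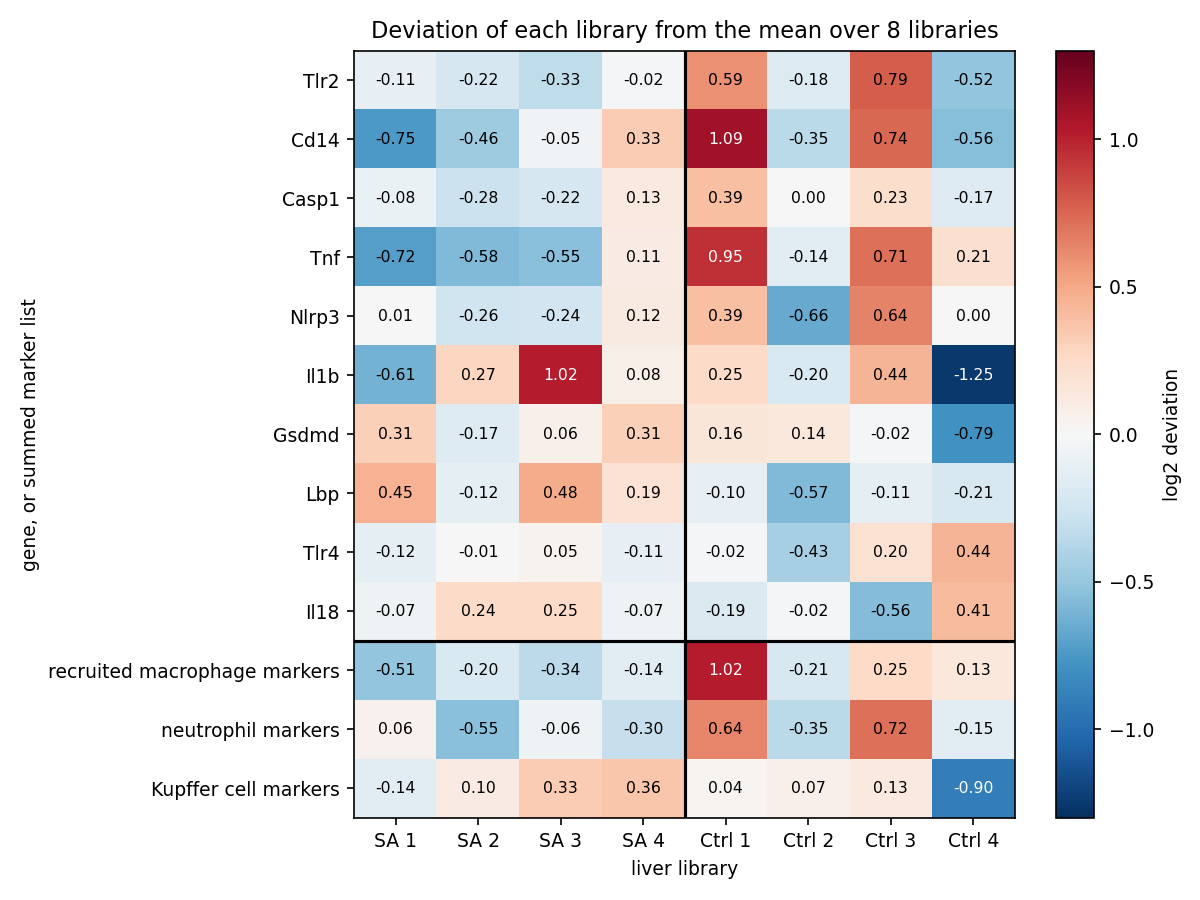
Log2 deviation of each library from the mean over the 8 libraries, for the 10 genes (log2 of CPM plus 0.5) and for the summed CPM of 3 marker lists. Columns are libraries, SA left of the line and Ctrl right of it. Ctrl 1 and Ctrl 3 are above the mean for Tlr2, Cd14, Casp1, Tnf, Nlrp3 and Il1b, and Ctrl 4 is the lowest for Il1b, Gsdmd and the Kupffer cell markers.

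Promoter letters are shown for 3 genes of this co-varying set, Tlr2, Casp1 and Tnf, and for Il1b, whose r with the 4 genes of the set was 0.02 to 0.52. RefSeq promoter windows (GRCm38.p6) were at hand for 6 of the 10 genes. Shown are the 250 bases before the start site, 5′ to 3′ on the gene's strand, with capitals marking the kappa-B consensus (the binding motif of NF-kappaB, searched by its usual consensus on both strands) and TATAAA. Tlr2 lies on the minus strand at chr3:83841609-83841858, Casp1 on the plus strand at chr9:5298267-5298516, Tnf on the minus strand at chr17:35202008-35202257 and Il1b on the minus strand at chr2:129371140-129371389.
Tlr2: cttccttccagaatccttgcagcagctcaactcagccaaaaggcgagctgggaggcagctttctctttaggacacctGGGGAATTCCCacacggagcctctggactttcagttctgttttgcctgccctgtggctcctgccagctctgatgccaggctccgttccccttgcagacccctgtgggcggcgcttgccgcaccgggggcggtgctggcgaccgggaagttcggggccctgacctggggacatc
Casp1: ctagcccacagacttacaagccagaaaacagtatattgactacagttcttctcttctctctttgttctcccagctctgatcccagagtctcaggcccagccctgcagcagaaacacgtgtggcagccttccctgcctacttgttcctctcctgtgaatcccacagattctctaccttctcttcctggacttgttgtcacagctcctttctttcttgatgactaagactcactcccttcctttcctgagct
Tnf: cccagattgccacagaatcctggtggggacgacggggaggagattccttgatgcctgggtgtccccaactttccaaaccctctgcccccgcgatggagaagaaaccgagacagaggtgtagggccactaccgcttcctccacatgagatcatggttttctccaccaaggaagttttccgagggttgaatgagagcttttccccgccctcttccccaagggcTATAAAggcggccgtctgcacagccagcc
Il1b: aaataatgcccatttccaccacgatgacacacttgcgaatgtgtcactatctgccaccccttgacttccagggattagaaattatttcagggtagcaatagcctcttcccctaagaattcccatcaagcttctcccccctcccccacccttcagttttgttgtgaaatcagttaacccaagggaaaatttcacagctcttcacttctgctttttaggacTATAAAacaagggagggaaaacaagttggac

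Tlr2 held 2 overlapping kappa-B matches, at -173 to -164 and at -172 to -163 from the start site, while the Casp1, Tnf and Il1b windows held none. Of the Nlrp3 windows, not shown, window 2 held a kappa-B match at -186 to -177 and window 1 held none. The Il18 window, also not shown, held none. Of 32851 mouse promoter windows of the same length, 7.25% held such a match. TATAAA stood at -29 to -24 in Tnf, at -31 to -26 in Il1b and, on the opposite strand, at -175 to -170 in Il18. Of all windows, 12.4% held it on either strand. The AP-1 motif TGANTCA, found in 6.75% of all windows on either strand, was in none of the 4 windows shown. A match is a run of letters, and a window without one says nothing of sites farther away.

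Markers of other cell types also differed between libraries. The 12 markers of monocytes and recruited macrophages summed to 130 to 168 CPM in SA and 160 to 376 CPM in Ctrl, with 375.6 CPM in Ctrl 1 and 221 CPM in Ctrl 3, and the mean was lower in SA for 10 of the 12. Lyz2 alone made up 85.5 to 120 CPM of these sums in SA and 117 to 213 CPM in Ctrl. In Ctrl 4, Lyz2 was lower than in SA 2 and SA 4, yet the sum, 204 CPM, was above every SA sum. Gpnmb, with the smallest p of that list, was at 2.60 to 3.60 CPM in SA and 4.55 to 52.8 CPM in Ctrl, without overlap. For Gpnmb edgeR gave -2.93 ± 0.57 (log2 fold change and SE, adjusted p = 0.227). It passed with DESeq2 (adjusted p = 0.00966), whose background was 0.478%, and in the unfiltered edgeR fit (adjusted p = 0.0164). Itgam of that list was at 0 in every library. The 10 neutrophil markers summed to 8.07 to 12.3 CPM in SA and 9.24 to 19.4 CPM in Ctrl, with 18.4 CPM in Ctrl 1 and 19.4 CPM in Ctrl 3. The mean was lower in SA for 8 of those 10, and Ly6g was at 0 in every library. Only 4 of the 10 neutrophil markers had enough counts to be tested. Csf3r alone made up 4.75 to 7.26 CPM of these sums in SA and 3.93 to 10.1 CPM in Ctrl, with a log2 fold change of -0.17. The 9 hepatic stellate cell markers summed to 426 to 483 CPM in SA and 498 to 663 CPM in Ctrl, with no overlap. The mean was lower in SA for 8 of the 9, Lrat being at 0. Dcn of that list was by itself at 148 to 163 CPM in SA and 178 to 329 CPM in Ctrl. Among single tested genes, 1.46% had SA below Ctrl without overlap, and no such share was computed for sums. The 7 bile duct markers summed to 38.1 to 67.0 CPM in SA and 35.2 to 135 CPM in Ctrl, and 6 of the 7 had a lower mean in SA. Spp1 alone made up 29.3 to 56.9 CPM of these sums in SA and 28.0 to 118 CPM in Ctrl. The part of any of these cell types in the levels of Cd14, Tlr2, Casp1, Nlrp3 and Tnf was not tested. In whole liver, fewer cells of a type and less RNA per cell cannot be told apart.

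Markers of Kupffer cells, the resident liver macrophages, ran otherwise. Their 12 genes summed to 698 to 990 CPM in SA and 414 to 843 CPM in Ctrl, the lowest being Ctrl 4. All 12 had a higher mean in SA, and none of them was at 0. Ctrl 1 to 3 summed to 791, 806 and 843 CPM, inside the SA range. For C1qa and C1qb each of Ctrl 1 to 3 lay above the SA mean, 68.2 and 79.1 CPM. The higher SA mean of C1qa and C1qb thus rests on Ctrl 4. For Timd4, Clec4f, Cd163 and Vsig4 every Ctrl library lay below the SA mean. T cell and NK cell markers, 11 in the table, summed to 8.70 to 13.6 CPM in SA and 3.66 to 8.34 CPM in Ctrl, with no overlap. The mean was higher in SA for 8 of the 11 and lower for 3, Cd2, Cd3e and Klrb1c. Only 6 had enough counts to be tested. Of these, Gzma and Cd8a had the smallest p. Their means were 2.56 and 1.44 CPM in SA and 0.469 and 0.204 CPM in Ctrl, without overlap of the groups. Among tested genes, 1.66% had all SA libraries above Ctrl. EdgeR called neither (adjusted p = 0.227 and 0.0819), and DESeq2 called both (adjusted p = 0.00184 and 0.00250), with a background of 0.478%. Trbc2, Cd4, Lck and Nkg7 had 0.14, 0.35, 0.45 and 1.18 (log2 fold change, edgeR). Sums without Gzma and Cd8a were not computed. Ctrl 4, with the high mitochondrial share, was also the lowest library for Tlr2, Il1b and Gsdmd and the highest for Tlr4 and Il18, and the part of that library's makeup or RNA in these values was not tested. When each library's mitochondrial share entered the fit as a covariate, edgeR again called none of the 9 genes.

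By likeness of pattern, the genes closest to these were sought among 11852 others with a mean of at least 1 CPM. The r values are the highest of that many over 8 libraries, so they are a description with no test. Closest to Tlr2 was Tnip1 (Pearson r 0.97, Spearman rho 0.76), which encodes an NF-kappaB inhibitor, and to Casp1 was Nfkb2 (r 0.95, rho 0.90), an NF-kappaB subunit gene. After these came Rtkn and Trim47 for Tlr2, and Thumpd1 and Mapkapk3 for Casp1. For Cd14 they were, in order, Sema6c (r 0.97, rho 0.90), Grwd1 (r 0.97, rho 0.93) and Tgfb1 (r 0.97, rho 0.93), a cytokine gene of fibrosis. For Il1b they were Dok3 (r 0.96, rho 1), Ctdsp2 (r 0.94, rho 0.86) and Adgre1 (r 0.94, rho 1), which encodes the macrophage antigen F4/80. For Lbp they were Grn (r 0.98, rho 0.90), Itih4 (r 0.98, rho 0.76), which encodes an acute-phase protein, and Col6a6 (r 0.97, rho 0.90). The first for Nlrp3 was 1810062G17Rik (r 0.96), for Gsdmd Hdgfl2 (r 0.98) and for Il18 Emc7 (r 0.96).

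Of the other genes of these pathways, 124 in 6 lists, 97 were tested and none passed with edgeR over all genes, against a background of 0.0162%. At an unadjusted p under 0.05, 4 were higher and 3 lower in SA, where the background was 2.91% of all tested genes higher and 3.29% lower. DESeq2 called 1, Il1r1, where its background was 0.478%. The median log2 fold change of the 97 was -0.02, beside -0.01 over all tested genes.

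**Figure D4:**
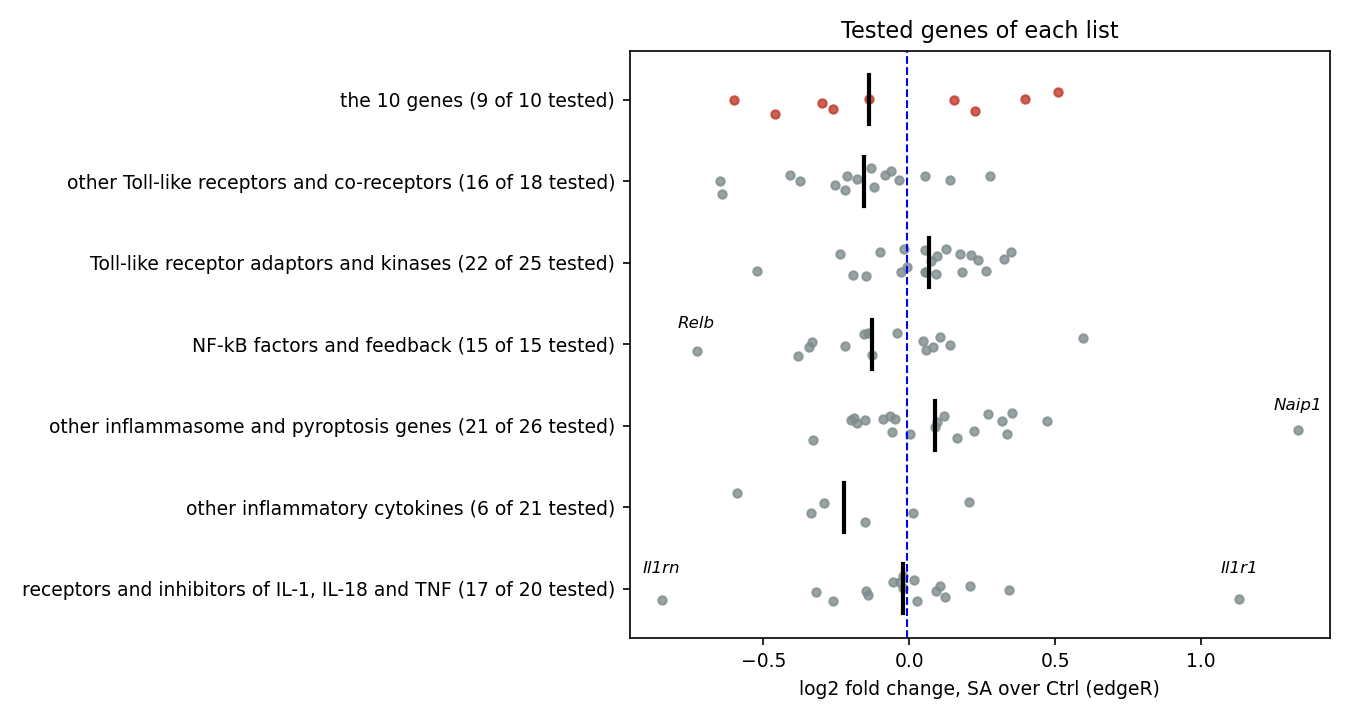
Log2 fold change (SA over Ctrl, edgeR) of every tested gene of the 10 and of the 6 further lists. Each point is a gene, black bars are list medians, and the dashed line is the median of all 12358 tested genes. List medians lie between -0.22 and 0.09, and Il1r1, Naip1, Il1rn and Relb, named in the plot, lie farthest out.

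Among receptors and inhibitors of IL-1, IL-18 and TNF, Il1r1, the signalling receptor of IL-1, had the smallest p. It stood at 207, 137, 167 and 96.5 CPM in SA 1 to 4 and at 43.8, 41.2, 95.8 and 96.7 CPM in Ctrl 1 to 4. Of the SA libraries 3 were above every Ctrl library, and SA 4 was level with Ctrl 3 and Ctrl 4. With edgeR, Il1r1 had 1.13 ± 0.31 (log2 fold change and SE, adjusted p = 0.425), and it passed with DESeq2, at 1.12 (adjusted p = 0.0375). In the FPKM table Il1r1 had 22.6, 5.71, 15.6 and 8.88 FPKM in SA 1 to 4 and 0.640, 3.34, 8.94 and 1.97 FPKM in Ctrl 1 to 4. Il1rn, the secreted antagonist of that receptor, took the other sign, at 8.65, 4.75, 10.3 and 10.1 CPM in SA 1 to 4 and 19.6, 8.62, 20.6 and 12.1 CPM in Ctrl 1 to 4. Like Cd14, Il1rn was highest in Ctrl 1 and Ctrl 3 in CPM, and its groups overlapped through Ctrl 2. In FPKM, unlike Cd14, Il1rn had Ctrl 1 and Ctrl 3 as its lowest Ctrl libraries. It had 5.11, 3.13, 6.58 and 1.07 FPKM in SA 1 to 4 and 1.41, 4.88, 2.30 and 5.96 FPKM in Ctrl 1 to 4. For Il1rn edgeR gave -0.85 ± 0.30 (log2 fold change and SE, adjusted p = 0.621), but it was 0.07 on the log2(FPKM + 1) scale (limma, adjusted p = 0.999). Of the 17 tested genes of that list 8 were positive, with a median of -0.02. Tnfrsf1a and Tnfrsf1b, the TNF receptor genes, had log2 fold changes of 0.11 and -0.05, and Il18bp, the soluble IL-18 antagonist, 0.09. The IL-18 receptor gene Il18r1, chosen after its values were seen, had too few counts to be tested, with 4, 7, 4 and 2 counts in SA 1 to 4 and 7, 7, 9 and 9 counts in Ctrl 1 to 4. In CPM, all 4 SA libraries of Il18r1 lay below the Ctrl libraries, at 0.0723 to 0.438 CPM against 0.478 to 0.646 CPM. Among tested genes, SA lay below Ctrl without overlap in 1.46%.

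NF-kappaB factors and their feedback genes had 6 positive and 9 negative values among 15 tested, with a median of -0.13. Nfkbiz, an inducible regulator of NF-kappaB target genes, was at 13.8 to 18.05 CPM in SA and 7.65 to 12.9 CPM in Ctrl, with no overlap of the groups. For Nfkbiz edgeR gave 0.60 ± 0.19 (log2 fold change and SE, adjusted p = 0.535), and 1.66% of tested genes had all SA libraries above Ctrl. Relb, a subunit of the non-canonical pathway, was at 2.41 to 6.26 CPM in SA and 4.09 to 10.4 CPM in Ctrl, and edgeR gave -0.73 ± 0.33 (log2 fold change and SE, adjusted p = 0.797). The feedback inhibitors Nfkbia and Tnfaip3 had -0.16 and -0.33.

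Other Toll-like receptors and co-receptors had 13 negative values among 16 tested, with a median of -0.16. Over all tested genes, 6344 of 12358 were negative. The genes of a list were measured in the same 8 libraries, and the sign counts carry no test. Tlr13, which recognizes bacterial ribosomal RNA, was at 3.69 to 5.46 CPM in SA and 4.07 to 8.47 CPM in Ctrl, and edgeR gave -0.64 ± 0.26 (log2 fold change and SE, adjusted p = 0.722). Tlr12, a receptor of parasite profilin, had -0.41, and Ly96, which encodes MD-2, had -0.22. The adaptors and kinases had 14 positive values among 22 tested, with a median of 0.07. Tollip, an adaptor that restrains receptor signalling, was at 91.7 to 103 CPM in SA and 78.6 to 85.7 CPM in Ctrl, a small difference without overlap, and edgeR gave 0.26 ± 0.12 (log2 fold change and SE, adjusted p = 0.800). Irak4, the first kinase after MyD88, had 0.35, but -0.26 on the log2(FPKM + 1) scale, and Ticam1, the adaptor TRIF, had -0.19.

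Myd88, the adaptor of most Toll-like receptors, had 0 counts in all 8 libraries of the count table, yet 14.3 to 18.4 FPKM in SA and 14.2 to 23.0 FPKM in Ctrl in the deposited FPKM table. A gene at 0 in this count table can thus have an FPKM above 0. Txnip, a binding partner of NLRP3, was likewise at 0 counts and at 37.2 to 67.3 FPKM in SA and 29.4 to 68.5 FPKM in Ctrl. No value from counts can be given for either gene.

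Among other inflammasome and pyroptosis genes, 12 of 21 tested were positive, with a median of 0.09. Naip1, a sensor of bacterial secretion needles, was at 1.61 to 3.46 CPM in SA and 0.273 to 1.27 CPM in Ctrl, without overlap, and edgeR gave 1.33 ± 0.43 (log2 fold change and SE, adjusted p = 0.558). The Naip genes are close copies of one another and reads may be split among them, so this value is uncertain, and the related gene Naip5 had 0.47. Pycard, the adaptor between NLRP3 and caspase-1, was low, at 0.692 to 1.13 CPM in SA and 0.861 to 1.296 CPM in Ctrl, with a log2 fold change of -0.06. Casp4, the mouse gene of caspase-11, which binds intracellular lipopolysaccharide, had -0.18.

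Other inflammatory cytokines were mostly too low to test, with 6 of 21 tested. Il1a had 2, 1, 4 and 0 counts in SA 1 to 4 and 1, 0, 1 and 1 counts in Ctrl 1 to 4. A count of 0 allows up to 0.108 CPM in SA 4 and 0.207 CPM in Ctrl 2 (3 counts). Csf1, the macrophage growth factor, had a log2 fold change of -0.29, and Ltb, lymphotoxin beta, -0.59 (edgeR, adjusted p = 0.978 and 0.996). The median of the 6 was -0.22.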

How the data were processed

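RNA of 8 mouse liver samples was sequenced, and the samples were grouped by their titles, 4 SA and 4 Ctrl. Of the authors' 2 deposited tables, one gives raw counts as whole numbers for 31910 genes, and the other gives FPKM for 9265 genes. The submitters' processing notes name StringTie 2.2.1, HISAT2 and FastQC 0.19.7, and both GRCm39 and mm10. The counting program and its build are not given in the sources used here, and the library kit is not labelled strand-specific.

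Counts were tested with edgeR 4.0.16 in R 4.3.3 (quasi-likelihood F test, TMM factors, filterByExpr, which left 12358 genes, Benjamini-Hochberg adjustment over them). SE came from the fold change and F. The biological coefficient of variation was 22.6%. The script was tested on simulated data. Intervals and floors cover counting error only. All pairs of libraries within a group differed beyond sampling noise (chi-square over degrees of freedom 33.2 or more). Same-numbered libraries had correlated deviations of -0.24 to 0.24, so the numbers did not pair them.

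The genes and lists were chosen with earlier results of these data known. Named were the 10 genes, the 2 genes with the smallest p of each list and preset partners of the 10. Alternatives were DESeq2 1.42.0, limma 3.58.1 (voom with and without sample weights, log2(FPKM + 1) and log2(FPKM + 0.1), keeping genes at 0.5 FPKM or more in 4 or more libraries, or unfiltered), RLE, upper quartile or no factors, no filter, or a minimum of 1 CPM in 4 libraries, the mitochondrial share as a covariate, the replicate number as a block, and each library left out. For Tnf, leaving libraries out of the unfiltered fit was added after seeing the data.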

Additional observations from a re-analysis of the deposited data

Results flagged for a closer look

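Tnf in SA 4, at 0.506 CPM from 14 counts, stood apart from the other 3 SA libraries, which had 0.0671, 0.125 and 0.138 CPM from 1, 2 and 2 counts. It was the only one of 20 sets of 4 libraries (10 genes in SA and in Ctrl) in which the gap to the nearest library passed the 95% critical value of Dixon's test, and chance passes about 1 in 20. SA 4 was also the most deeply sequenced library. Without it the log2 fold change of Tnf in the unfiltered fit was -2.79, against -1.77 with it.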

How the results depend on the processing

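None of the 10 genes passed the threshold under any alternative run for it (for Tnf, only the unfiltered fits). Of their 188 alternative values, 183 kept the sign. Those of opposite sign were Il1b on FPKM (-0.0809 with a pseudocount of 1, with and without the filter, and -0.0692 with 0.1) and Tlr4 with limma-voom sample weights (0.0328) and without Ctrl 4 (0.0101; lowest -0.277 with 1 library left out). Of 416 values of the other named genes, 20 changed sign. On FPKM with a pseudocount of 1, filtered or not, these were Il18bp (-0.0396), Il1rn (0.0707), Irak4 (-0.257) and Ly96 (0.0501), and with 0.1 Il18bp (-0.203), Il1rn (0.0666), Irak4 (-0.554) and Ly96 (0.0664). With sample weights they were Il18bp (-0.00681) and Tnfrsf1a (-0.00791). With 1 library left out, the range was -0.0324 to 0.210 for Il18bp, -0.277 to 0.109 for Casp4, -0.180 to 0.0857 for Pycard and -0.122 to 0.0495 for Tnfrsf1b. Il1r1 passed with DESeq2 (1.12, adjusted p = 0.0375; 0.124 to 0.999 under the other alternatives).

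The number of genes past the threshold was 2, and was 59 with DESeq2, 8 without a low-count filter, 5 with sample weights, 1 with the mitochondrial covariate, 6 with the replicate block and 0 to 19 with 1 library left out (0 without Ctrl 4, 19 without SA 1). The replicate block called none of the 9 tested genes. The cause of these differences was not tested. Tnf, at 1 to 19 counts a library, is the most limited by depth of the 10 genes.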

Other observations

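The 2 deposited tables part for some genes beyond Myd88 and Txnip. Of 8638 symbols in both tables, 495 had 0 counts in every library, and 237 of these had at least 5 FPKM in every library. In GENCODE vM21, 290 bases of the Myd88 exons (11.3%) are shared with Acaa1a on the opposite strand, and 606 bases of the Txnip exons (19.4%) with the antisense gene Gm15441. None of the 10 genes described above was at 0 in any library.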
